A study of Homo sapiens with 4 samples.

Results

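The genes described here are 10 secreted signals that epithelial cells use to call in and activate leukocytes. They are the chemokine genes CXCL1, CXCL2, CXCL3, CXCL5, CXCL8 and CCL20 and the inflammatory cytokine genes IL1A, IL1B, IL6 and TNF. They were taken by symbol from a table of 60302 genes, where each has 1 row, so all 10 were found. The table gives FPKM (fragment counts corrected for the size of the gene and of the library) for 4 samples of HMLE cells, an immortalized human mammary epithelial line. In the 2 control samples the cells stably carried a non-specific short hairpin RNA, and in the 2 hnRNPF knockdown samples they carried a hairpin against hnRNPF. Both kinds of hairpin were brought in with lentiviral vectors. hnRNPF is a nuclear protein that binds G-rich RNA and regulates splicing, and the comparison asks how the level of these signals differs when it is depleted. The labels name no inflammatory stimulus. It is not stated whether samples of a group differ in hairpin or infection, and p-values therefore reflect only how far these 4 samples spread, which may be technical.

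Chemokines of the CXC class that carry the motif Glu-Leu-Arg before their first cysteine, which include CXCL1, CXCL2, CXCL3, CXCL5 and CXCL8, attract neutrophils through the receptors CXCR1 and CXCR2. CCL20 attracts dendritic cells and lymphocytes that carry CCR6. IL-1α, IL-1β and TNF are alarm cytokines that act on neighbouring cells and switch on the transcription factor NF-κB, and IL-6 and the chemokines are among the genes that NF-κB then induces. Their mRNAs are as a rule short-lived, because AU-rich elements in their 3′ untranslated regions (3′ UTRs) recruit proteins that promote decay.

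Targeting was checked first. HNRNPF stood at 154 and 153 FPKM in the control samples, against 18.7 and 16.6 FPKM after knockdown, which is 8.71-fold lower, so every sample matched its label. It was the only gene of 13110 tested with an adjusted p under 0.05 (limma, adjusted p = 0.0251). That call needs both controls, since its adjusted p rose to 0.262 when control 1 was left out and to 0.104 when control 2 was. The identity of the cells was checked as well. All 8 basal mammary epithelial markers, such as KRT5 and KRT14, were above 1 FPKM on average, and their summed level was 9034 and 13920 FPKM in the control samples, against 11918 and 13826 FPKM after knockdown. Among the leukocyte markers, CD3E and TYROBP were listed at 0 in every sample. PTPRC, the pan-leukocyte surface phosphatase gene, reached at most 0.0384 FPKM. The leukocyte list summed to between 13.7 and 14.7 FPKM, most of it CD68, a lysosomal gene that epithelial cells also express. Values of single genes in these samples are relative: in bulk RNA, fewer cells making a transcript and less transcript per cell cannot be told apart.

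The 10 genes sit at few places in the genome. In the coordinates of the deposited table (GRCh37), the 5 CXC genes lie together on chromosome 4. CXCL8 is at chr4:74606223-74609433 and CXCL1 at chr4:74735110-74736959, both on the plus strand. CXCL5 at chr4:74861359-74864496, CXCL3 at chr4:74902306-74904524 and CXCL2 at chr4:74962752-74965010 are on the minus strand. IL1A (chr2:113531492-113542167, minus) and IL1B (chr2:113587328-113594480, minus) are neighbours on chromosome 2, which also holds CCL20 (chr2:228678558-228682280, plus). TNF is at chr6:31543344-31546113 and IL6 at chr7:22765503-22771621, both on the plus strand. Only IL6 overlaps another gene of the table, AC073072.5 on the opposite strand, which reached at most 0.00863 FPKM.

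CXCL1, CXCL2 and CXCL3 are recent copies of each other, which bears on how fragments are assigned to them. Their coding sequences were 93.5% (CXCL1 and CXCL2), 90.7% (CXCL1 and CXCL3) and 94.4% identical (CXCL2 and CXCL3). In the GENCODE 29 transcripts, 9.24% of the 50-base stretches of CXCL2, 5.73% of those of CXCL1 and 5.26% of those of CXCL3 also occur in another gene. The other 7 members share less, with 1.12% for CXCL5 and none for CXCL8, CCL20, IL1A, IL1B, IL6 and TNF. CXCL5 is 87.4% identical in coding sequence to CXCL6, its closest relative, but shares no 50-base stretch with it. Values of CXCL1, CXCL2 and CXCL3 therefore carry some uncertainty from shared fragments.

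The promoters of the 10 genes are shown where they hold the NF-κB consensus, since the factor is known to drive this group. The RefSeq promoter table (GRCh38.p14) has a window for all 10, from 250 bases before to 50 after the start site. A 10-base NF-κB consensus, searched on both strands, was found in 6 of the 10 windows, against 5.91% of the 35116 windows of this length in the table. In the 4 CXC promoters the match was the same 10 bases, and it also matched on the other strand at an offset of 1 base, so it is counted as 1 place. The stretches below are 5′ to 3′ on the gene's strand, with the matching 10 bases in capitals.
CXCL1 (chr4:73869304-73869333, plus): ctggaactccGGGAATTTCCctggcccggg
CXCL2 (chr4:74099254-74099283, minus): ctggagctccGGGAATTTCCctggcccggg
CXCL3 (chr4:74038749-74038778, minus): ctggagctccGGGAATTTCCctggcccggc
CXCL5 (chr4:73998749-73998778, minus): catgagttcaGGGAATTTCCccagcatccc
IL6 (chr7:22727117-22727146, plus): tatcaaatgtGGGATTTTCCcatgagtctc
CCL20 (chr2:227813753-227813782, plus): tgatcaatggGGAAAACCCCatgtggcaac
In these 6 windows the match began between 73 and 91 bases before the start site. In CCL20 it was on the strand opposite to the gene, so its capitals read as the reverse complement of the consensus. The windows of CXCL8, IL1A, IL1B and TNF held no match, which says only that these letters are not in those 300 bases. The sequence TATAAA, searched on the gene's strand, was in the windows of CXCL8, IL1A, TNF and CCL20 and in 7.33% of all windows. A match is a description of the letters and not a site of binding.

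The 3′ ends of the transcripts were compared in the same way, because AU-rich elements set the lifetime of this class of mRNA. The pentamer ATTTA was present in the 3′ UTR of all 10 members and of 70.3% of the 11253 tested genes with a 3′ UTR in GENCODE 29. The longer core TATTTAT, which contains ATTTA, was again present in all 10, against 33.0% of the tested genes. CXCL2 held 10 copies of ATTTA in 721 bases. Of the tested genes with a 3′ UTR of similar length (0.8 to 1.25 times), 0.0709% held as many or more. These shares count the member itself where it was tested. TNF held 9 in 799 bases (0.347% of genes of similar length) and IL6 6 in 429 bases (0.174%). At the other end of the range, IL1A held 5 in 1152 bases, and 19.2% of genes of similar length held as many. The densest stretch of 30 bases is given below for the members the comparison turns on and for CXCL1 and CXCL2, 5′ to 3′ in DNA letters, with each ATTTA in capitals and overlapping copies run together.
CXCL1 (bases 129 to 158 after the stop codon): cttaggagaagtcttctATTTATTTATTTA
CXCL2 (bases 137 to 166): aagtcttctATTTATTTATTTATTTATTTA
CXCL3 (bases 143 to 172): ttacgagggttctacttATTTAtgtATTTA
CXCL5 (bases 920 to 949): caaacaatttgaatataaATTTAtcATTTA
IL1B (bases 329 to 358): tgagcaaccgcttccctATTTATTTATTTA
TNF (bases 462 to 491): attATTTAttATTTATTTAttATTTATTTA
TNF and CXCL2 hold 5 copies within such a stretch, CXCL1 and IL1B hold 3, and CXCL3 and CXCL5 hold 2. Over their whole 3′ UTR, the close copies CXCL1, CXCL2 and CXCL3 hold 5, 10 and 7.

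**Figure D1:**
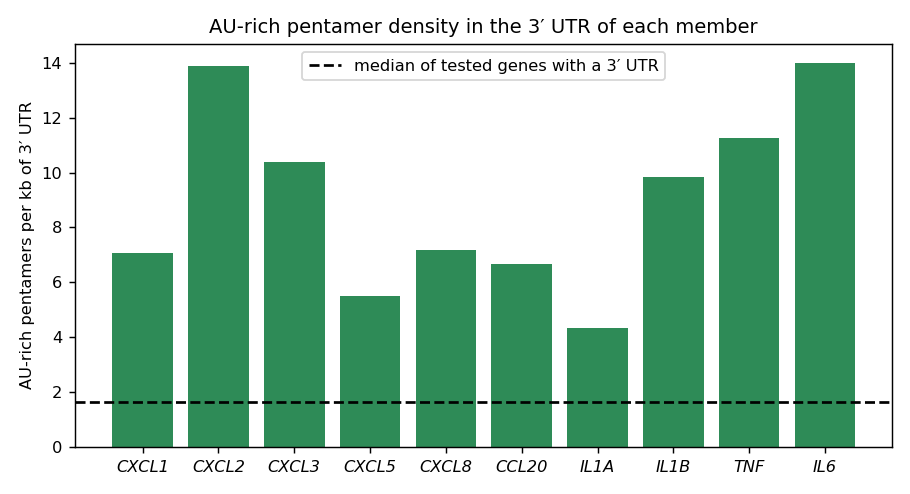
Copies of the AU-rich pentamer per kilobase of 3′ UTR (y axis) for each of the 10 members (bars), with the median of the 11253 tested genes as a dashed line at 1.64. Every member lies above the median, from 4.34 per kb for IL1A to 14.0 per kb for IL6.

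Levels of the 10 genes spanned a wide range. IL1A, the cell-associated alarm cytokine, was the most abundant, with 170 and 120 FPKM in the control samples, against 157 and 105 FPKM after knockdown. IL1B and CXCL1 followed, between 50.8 and 83.3 FPKM and between 46.2 and 67.4 FPKM, and these 2 could not be ordered because their ranges overlap. IL1A, CXCL1 and IL1B together made up 89.7% of the summed FPKM of the 10 genes. CXCL8 came next at 8.95 to 10.1 FPKM, then TNF at 5.01 to 8.30 FPKM, CCL20 at 4.04 to 5.55 FPKM, CXCL3 at 2.59 to 4.99 FPKM and CXCL2 at 2.92 to 3.65 FPKM. TNF overlapped CCL20, CCL20 overlapped CXCL3, and CXCL3 overlapped CXCL2. CXCL5 lay at 0.629 to 2.98 FPKM, and its highest value reached the ranges of CXCL2 and CXCL3. IL6 was near the limit of detection, at 0.0423 and 0.0233 FPKM in the control samples and 0.0730 FPKM in knockdown 1, and it was listed at 0 in knockdown 2. At the depth implied by the smallest steps in the table, those IL6 values stand for about 5, 3, 9 and 0 fragments, so no difference could be detected. The other 9 genes averaged 1 FPKM or more across the samples and were tested. The lowest of them, CXCL5, corresponds to an estimated 170 and 130 fragments in the control samples, against 610 and 550 after knockdown.

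**Figure D2:**
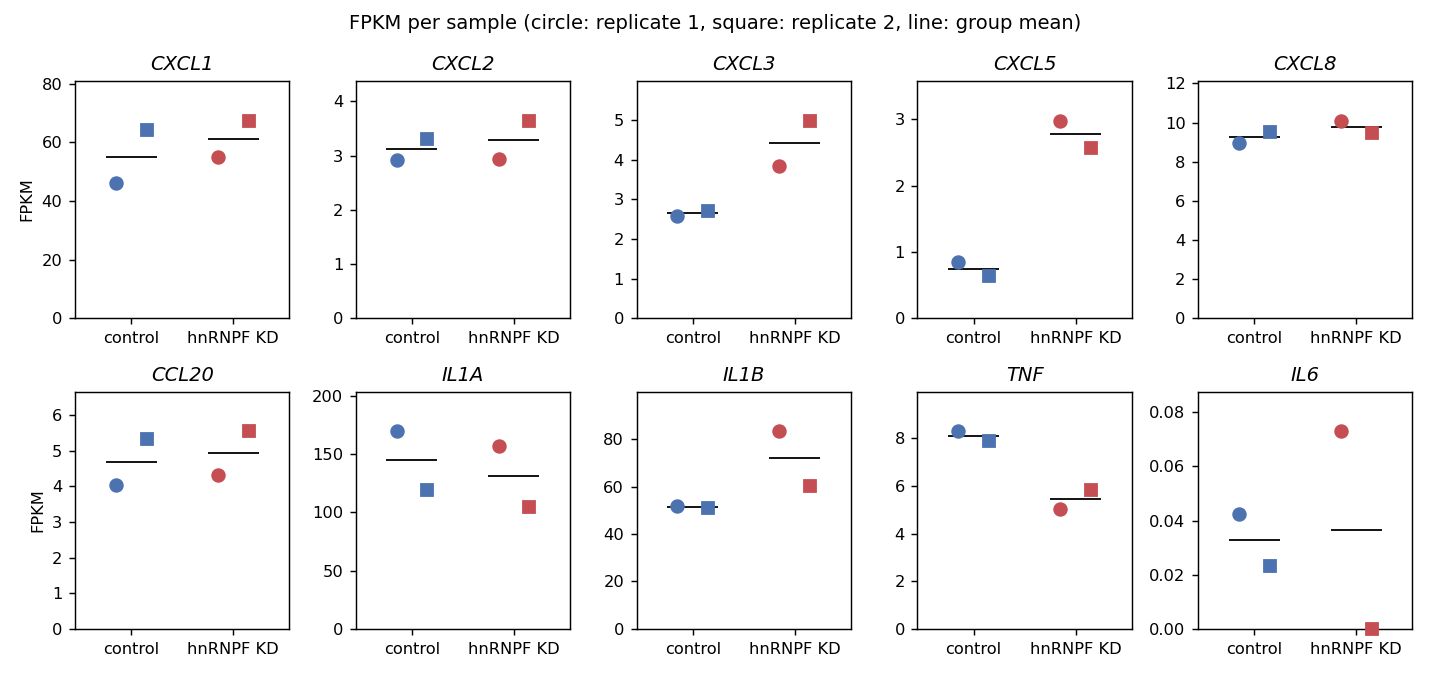
FPKM of each of the 10 genes (y axis, linear, a separate scale for each gene) in the control and hnRNPF knockdown samples (x axis), with circles for replicate 1, squares for replicate 2 and lines for the group means. CXCL5, CXCL3 and IL1B are higher and TNF is lower in both knockdown samples than in both controls, while the other 6 genes overlap.

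None of the 9 tested genes passed the adjusted threshold of 0.05 in limma, where 0.00763% of all tested genes did, HNRNPF alone. Their adjusted p-values lay between 0.465 and 0.999. Of the 9, 7 had a log2 fold change above 0 and 2 below 0, with a median of 0.08, against 50.2% above 0 and a median of 0.00 over all 13110 genes. Groups did not overlap for 4 genes, 3 of them higher and 1 lower in knockdown, where 17.5% of all tested genes were without overlap and higher and 17.1% without overlap and lower, 34.6% in all. The same 4 genes were under an unadjusted p of 0.05, again 3 higher (3.06% of all genes) and 1 lower (3.02%), against 6.08% in either direction. The 4 genes are described first, with fold changes as ratios of mean FPKM and log2 fold changes on the log2(FPKM + 1) scale, which understates changes of low genes. Errors are SDs with n = 2 per group.

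CXCL5 showed the greatest difference of the 9 tested genes. This chemokine, also called ENA-78, acts on neutrophils through CXCR2. It was at 0.844 and 0.629 FPKM in the control samples, against 2.98 and 2.57 FPKM after knockdown. Both knockdown samples had more than 3 times the value of either control, and the groups did not overlap. The means were 0.736 ± 0.152 and 2.77 ± 0.291 FPKM, 3.77-fold apart. The control mean was under the filter of 1 FPKM, so CXCL5 was tested only through its knockdown values. Its place among the tested genes carries that selection. The log2 fold change was 1.12 (SE 0.167, 95% interval 0.68 to 1.56), with an unadjusted p of 0.00163 and an adjusted p of 0.465 in limma, so it did not pass. By unadjusted p it was number 46 of the 13110 genes tested. Summed with its relative CXCL6 the log2 fold change was 1.07, an alternative chosen after seeing the data.

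CXCL3, a close copy of CXCL1 and CXCL2, also had higher values in knockdown. It was at 2.59 and 2.71 FPKM in the control samples, against 3.85 and 4.99 FPKM after knockdown. The controls were close together, the knockdown samples were further apart, and the groups did not overlap. The means of 2.65 ± 0.0861 and 4.42 ± 0.803 FPKM were 1.67-fold apart, with a log2 fold change of 0.56 (SE 0.173, limma, adjusted p = 0.779). Its copies did not show this pattern of values. CXCL2 was at 2.92 and 3.30 FPKM in the control samples, against 2.94 and 3.65 FPKM after knockdown, with a 95% interval of the log2 difference from -0.39 to 0.50. CXCL1 was at 46.2 and 64.0 FPKM in the control samples, against 55.0 and 67.4 FPKM after knockdown, with an interval from -0.37 to 0.69. The interval of CXCL1 includes the log2 fold change of CXCL3, and that of CXCL2 ends below it. A difference between the copies was not tested. When the 3 genes were summed, the log2 fold change was 0.18 (limma, adjusted p = 0.989).

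IL1B encodes the secreted form of IL-1, which is made as an inactive precursor and cut by caspase-1. It was at 51.7 and 50.8 FPKM in the control samples, against 83.3 FPKM in knockdown 1 and 60.4 FPKM in knockdown 2. The groups did not overlap, but knockdown 1 stood well above knockdown 2. The means of 51.3 ± 0.623 and 71.8 ± 16.2 FPKM were 1.40-fold apart, with a log2 fold change of 0.46 (SE 0.173, limma, adjusted p = 0.821). Without knockdown 1 the log2 fold change was 0.23, and without knockdown 2 it was 0.69. IL1A, its neighbour on chromosome 2, did not share the pattern, as its groups overlapped and its values separated by replicate number. In IL1B too the sample numbered 1 was the higher one in each group. IL1A was at 170 and 157 FPKM in the samples numbered 1 and at 120 and 105 FPKM in those numbered 2. Its log2 fold change was -0.15, with an interval from -0.86 to 0.56. The ratio of IL1B to IL1A within a sample was 0.305 and 0.425 in the control samples, against 0.530 and 0.577 after knockdown.

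TNF was the gene of the 10 that was lower in both knockdown samples. It encodes the cytokine that activates NF-κB through TNF receptor 1 and is released from the cell surface by the protease ADAM17. TNF was at 8.30 and 7.89 FPKM in the control samples, against 5.01 and 5.85 FPKM after knockdown, and the groups did not overlap. The means of 8.09 ± 0.288 and 5.43 ± 0.590 FPKM were 1.49-fold apart, with a log2 fold change of -0.50 (SE 0.142, 95% interval -0.88 to -0.13, limma, adjusted p = 0.762). With 1 sample left out the log2 fold change lay between -0.60 and -0.41. Its sign could not turn there, because the groups did not overlap.

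**Figure D3:**
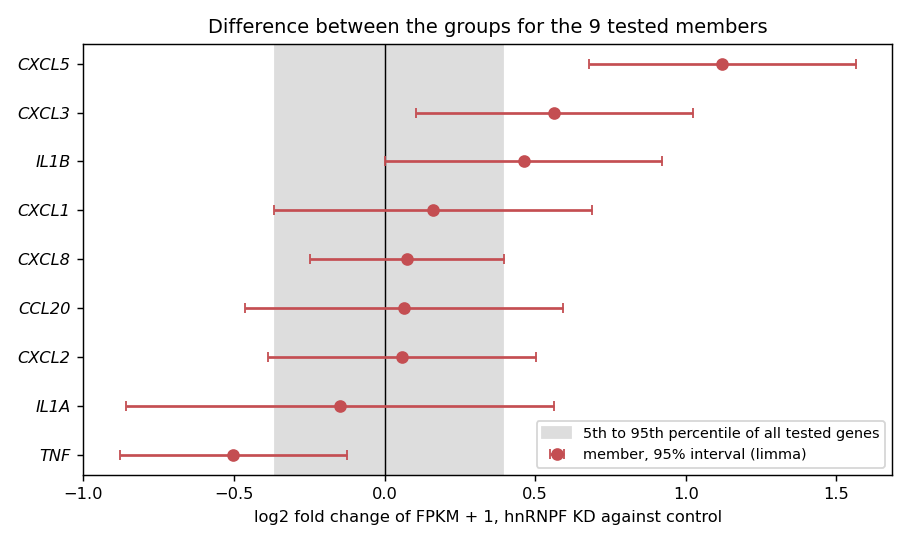
Log2 fold change of FPKM + 1 between hnRNPF knockdown and control (x axis) for the 9 tested members (y axis), with 95% intervals from limma and, in grey, the 5th to 95th percentile of all 13110 tested genes (-0.36 to 0.39). CXCL5, CXCL3 and IL1B lie to the right of the grey band and TNF to its left, and no member passed after adjustment.

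The remaining tested members showed no separation of the groups. CXCL8, the neutrophil chemokine also called interleukin-8, was the least variable. It was at 8.95 and 9.54 FPKM in the control samples, against 10.1 and 9.49 FPKM after knockdown, with a log2 fold change of 0.08 and an interval from -0.25 to 0.40. CCL20 was at 4.04 and 5.33 FPKM in the control samples, against 4.32 and 5.55 FPKM after knockdown, with an interval from -0.47 to 0.59. In CCL20, CXCL1, CXCL2 and CXCL3 the samples numbered 2 had the higher value in each group, opposite to IL1A, IL1B and CXCL5. Mitochondrially encoded genes did not follow this order, since their summed level was 24742 FPKM in control 2 and between 31102 and 32440 FPKM in the other 3 samples. The basal marker sum was likewise higher in the samples numbered 2 in each group. Its part in these values was not tested.

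**Figure D4:**
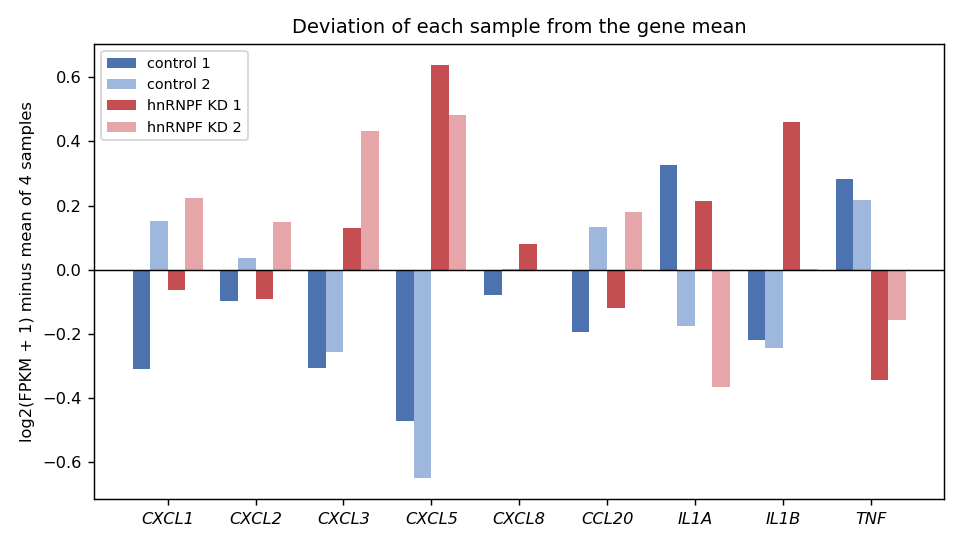
Deviation of log2(FPKM + 1) from the mean of the 4 samples (y axis) for the 9 tested members (x axis), with a bar for each sample. CXCL1, CXCL2, CCL20 and IL1A separate by replicate number, CXCL3, CXCL5, IL1B and TNF separate by group, and CXCL8 stays within 0.081 of its mean.

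The pattern of CXCL8 over the 4 samples was compared with that of all other tested genes. The 5 nearest by root mean square distance of centred log2(FPKM + 1) were ANO7 (distance 0.00705), GNAS (0.00752), DCBLD2 (0.00929), TTC1 (0.0104) and AIM1 (0.0110). With 4 samples and small differences this likeness describes these libraries only.

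Genes that act with the 10 members were examined in lists grouped by role, 83 tested genes in all. None passed the adjusted threshold (limma, lowest adjusted p = 0.540), and 8 higher and 2 lower were under an unadjusted p of 0.05, beside 3.06% and 3.02% of all tested genes. Of the 83, 45 had a log2 fold change above 0 with a median of 0.04, close to the 50.2% and 0.00 of all tested genes. Groups did not overlap for 22 higher and 17 lower genes, beside the 17.5% and 17.1% of all tested genes given above.

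Other chemokines were mostly low. Of 17 listed, 4 averaged 1 FPKM or more and 2 of those were above 0 (median log2 fold change 0.13). CCL28, a mucosal chemokine, was at 1.167 and 0.767 FPKM in the control samples, against 1.951 and 1.175 FPKM after knockdown. Its control mean of 0.967 FPKM was under the filter, so it too was tested only through its knockdown values. CX3CL1, a membrane-bound chemokine, was at 6.59 FPKM in control 1 and between 1.62 and 2.22 FPKM in the other 3 samples. Under the filter were 13 genes, among them CXCL6 and PPBP, relatives of CXCL5 in the same cluster, named here after their values were seen. CXCL6 was at 0.431 and 0.321 FPKM in the control samples, against 0.787 and 0.546 FPKM after knockdown. PPBP was at 0.560 and 0.717 FPKM and then at 1.11 and 1.51 FPKM. Both were higher in both knockdown samples than in both controls, at levels that were not tested. This order was not particular to the pair. It also held for CXCL11, at 0.314 and 0.231 FPKM and then at 0.581 and 0.665 FPKM. CCL22 and CXCL12, at lower levels, showed it as well. The 13 genes did not all go this way. PF4 was listed at 0 in every sample, and CCL2, under 0.16 FPKM throughout, was lower in both knockdown samples.

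Other cytokines had 13 of 20 genes tested, with 9 above 0 and a median log2 fold change of 0.19. Groups did not overlap for 7 higher genes and 1 lower gene, beside 17.5% and 17.1% of all tested genes. At an unadjusted p under 0.05 there were 4 higher and 0 lower, beside 3.06% and 3.02% of all tested genes. IL36G, an IL-1 family cytokine of squamous epithelia, was at 2.25 and 3.70 FPKM in the control samples, against 5.995 and 6.898 FPKM after knockdown (limma, adjusted p = 0.683). IL1RN, which encodes the antagonist that blocks IL-1α and IL-1β at their receptor, was at 6.23 and 9.55 FPKM in the control samples, against 13.6 and 21.1 FPKM after knockdown (limma, adjusted p = 0.759). In IL1RN the samples numbered 2 were also the higher ones in each group. The values of the agonist IL1B and of the antagonist IL1RN were thus both higher in both knockdown samples, 1.402-fold and 2.201-fold by the means.

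Receptors of the members had 6 of 11 genes tested, and 5 of the 6 were below 0 with a median log2 fold change of -0.17. IL1RAP, the accessory chain that the IL-1 receptor needs to signal, was at 6.56 and 7.79 FPKM in the control samples, against 5.53 and 5.32 FPKM after knockdown (limma, adjusted p = 0.841). TNFRSF1A, TNF receptor 1, was at 33.0 and 56.7 FPKM in the control samples, against 23.5 and 35.2 FPKM after knockdown, with overlapping groups. The receptors of the chemokines, named after their values were seen, were too low to test. CXCR1 and CXCR2 stayed under 0.52 FPKM, and CCR6 was listed at 0 in all 4 samples.

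Signal transducers and NF-κB subunits were all tested (20 genes), with 11 above 0 and a median log2 fold change of 0.03. MYD88, the adaptor that links IL-1 receptors and Toll-like receptors to the IRAK kinases, was at 5.30 and 4.10 FPKM in the control samples, against 9.32 and 10.2 FPKM after knockdown. The means were 2.07-fold apart and the groups did not overlap (limma, unadjusted p = 0.0035, adjusted p = 0.540). TAB3, which binds the kinase TAK1, was at 15.2 and 12.1 FPKM in the control samples, against 11.05 and 9.53 FPKM after knockdown. Of 18 NF-κB feedback and target genes 8 were above 0, with a median of -0.03. CYLD, a deubiquitinase that restrains the pathway, was at 6.43 and 6.60 FPKM in the control samples, against 10.4 and 8.68 FPKM after knockdown (limma, adjusted p = 0.772). SAA1, an acute-phase gene, was at 509 and 540 FPKM in the control samples, against 360 and 440 FPKM after knockdown (limma, adjusted p = 0.806).

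Factors that set the decay or stability of such mRNAs, through AU-rich elements or through stem-loops in the 3′ UTR, were examined too. Of 11 tested, 6 were above 0, and the median log2 fold change was 0.00. Only KHSRP was without overlap between the groups, beside 34.6% of all tested genes in either direction. KHSRP, which binds AU-rich elements and promotes decay, was at 93.9 and 94.1 FPKM in the control samples, against 88.8 and 83.5 FPKM after knockdown. ZC3H12A, the RNase regnase-1, which recognises stem-loops, was at 31.6 and 36.8 FPKM in the control samples, against 26.4 and 32.4 FPKM after knockdown. Genes for processing and release of IL-1 and TNF were all tested (11 genes), with 8 above 0 and a median of 0.08. NLRP1, an inflammasome sensor of epithelial cells, was at 2.64 and 2.79 FPKM in the control samples, against 5.83 and 4.50 FPKM after knockdown (limma, adjusted p = 0.678). GSDMD, the pore-forming protein through which mature IL-1β leaves the cell, was at 10.1 and 8.91 FPKM in the control samples, against 6.51 and 6.05 FPKM after knockdown (limma, adjusted p = 0.720).

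**Figure D5:**
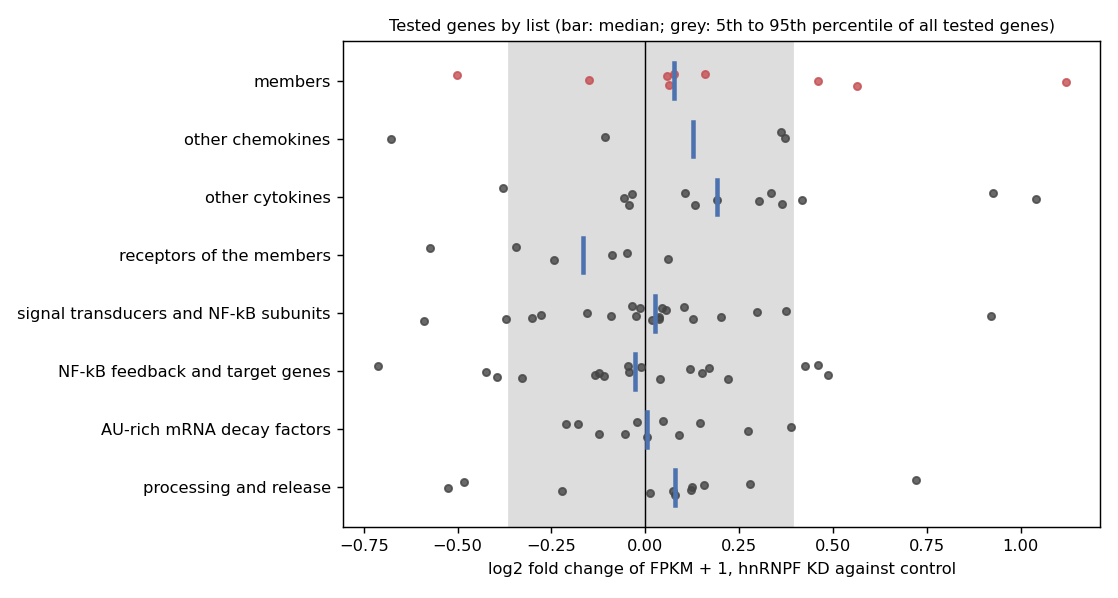
Log2 fold change of FPKM + 1 (x axis) for every tested gene of the 10 members (red) and of the 7 lists of related genes (dark grey, y axis), with a blue bar at each median and a grey band from the 5th to the 95th percentile of all tested genes. Medians run from -0.17 for the receptors to 0.19 for the other cytokines, and all lie within the grey band.

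Markers of other cell types were set beside the 4 genes without overlap. The leukocyte sum overlapped between the groups. Epithelial adhesion markers summed to 496 and 511 FPKM in the control samples, against 520 and 571 FPKM after knockdown. Fibroblast markers summed to 11.8 and 10.2 FPKM and then to 12.5 and 13.5 FPKM, nearly all of it COL1A1, while LUM and DCN stayed under 0.08 FPKM. Members of the adhesion list went both ways: EPCAM was at 56.4 and 45.9 FPKM and then at 38.6 and 38.9 FPKM, and KRT18 was also lower in both knockdown samples, while DSP and CDH3 were higher. The adhesion and fibroblast sums were higher in both knockdown samples, and their part in the values of CXCL5, CXCL3, IL1B and TNF was not tested. Endothelial markers summed to at most 0.145 FPKM in every sample.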

How the data were processed

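The deposited table gives FPKM, made by the authors per the file headers, with 1 column per sample. Libraries were stranded, paired-end and polyA-selected per the labels' protocols. GRCh37, Cuffdiff 2.2.1 and STAR 2.5.3a are named, with no roles, per the submitters' processing notes. The 4 columns were matched to samples by title. FPKM summed to between 391184 and 396135 per sample. Depth is not listed: the commonest smallest step in single-exon genes of at least 500 bp implies 77400000 to 85000000 fragments. Because 42.7% to 45.5% of low values were whole multiples within 0.02, whole reads could not be had and counts were not modelled.

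Genes averaging 1 FPKM or more were tested as log2(FPKM + 1) with limma 3.58.1 (R 4.3.3), with an intensity trend and no covariate, two-sided, and Benjamini-Hochberg adjustment over 13110 genes. An exact permutation test of 2 against 2 cannot go below 0.333. The fit was tested on 10 simulated tables with 200 known changes each. It recovered 61.0% of log2 changes of 1 and 97.7% of those of 2, with 12.8 false calls per table. The simulated noise was normal, with SDs already moderated by the fit, and 200 genes changed, while the real table had 1 gene called. The recovered shares therefore do not carry over to the real table. Smaller changes were not simulated. The members and lists were chosen with earlier results of these data known, and no set test was run. Named genes are the members, HNRNPF, for each list up to 4 genes past the threshold or else the 2 with the smallest p, and the 5 genes most like CXCL8. CXCL6, PPBP, CXCL11, CXCL12, CCL22, PF4, CCL2, CXCR1, CXCR2, CCR6 and the markers are named outside that rule, with no test. Alternatives were other pseudocounts, filters and scalings, no trend, a robust fit, the replicate number as a block, each sample left out, and sums of near-identical genes. Sequences came from RefSeq promoters (GRCh38.p14) and GENCODE 29 transcripts, of which the one with the best APPRIS rank was used per gene. Python 3.11.15 with Biopython 1.88 was used.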

Additional observations from a re-analysis of the deposited data

How the results depend on the processing

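No member passed the adjusted threshold under any alternative run. CXCL3, CXCL5, CXCL8, IL1B and TNF kept their direction under every alternative that tested them (the filter at 5 FPKM drops CXCL3 and CXCL5). CXCL5 lay between 1.03 and 1.79 on the log2 scale. For CXCL3, CXCL5, IL1B and TNF, whose groups do not overlap, leaving out 1 sample could not turn the sign. Leaving out 1 sample turned the sign of 4 members with overlapping groups. CXCL1 ranged from -0.071 to 0.391 (turned without control 1), CXCL2 from -0.0614 to 0.177 (-0.0089 without control 1), IL1A from -0.44 to 0.14 (0.10 without control 1) and CCL20 from -0.10 to 0.23 (-0.09 without knockdown 2). For CXCL2, IL1A and CCL20 the sign turned without control 1 or without knockdown 2. With the filter at 5 FPKM 5 members were tested and 3 were above 0. Members above 0 numbered 5 to 7 with 1 sample left out.

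HNRNPF kept its log2 fold change of -3.05 but not the call with no filter (adjusted p = 0.259) and with no trend (adjusted p = 0.0995). Leaving out 1 sample gave -3.13 to -2.98, with an adjusted p of 0.262 without control 1 and of 0.104 without control 2. Genes called over the whole table then numbered 0 with no filter or no trend, and 0 to 2 with 1 sample left out. With the replicate block, on fewer residual degrees of freedom, HNRNPF was again at -3.05 (limma, adjusted p = 0.164), 0 genes were called, 1790 were under an unadjusted p of 0.05, and CXCL5 had an adjusted p of 0.271. Deviations of the samples numbered 1 from their group means correlated at r = 0.39 over genes. With 2 pairs the numbers are not taken to pair the samples.

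With no filter, genes above 0 were 10 of 15 other chemokines, 16 of 20 other cytokines and 3 of 10 receptors. With the filter at 5 FPKM 0 of 1 other chemokine was. With 1 sample left out, receptors above 0 numbered 1 to 2 and mRNA decay and stability factors 3 to 7. Leaving out a control or a knockdown sample moved the median of all genes by up to 0.06. IL6 could be fitted only with no filter, with a log2 fold change of 0.0043. With 2 samples per group and 2 residual degrees of freedom, precision is limited by their number.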
